A study of Caenorhabditis elegans with 2 samples.

Results

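Candidate binding regions of the tagged nuclear hormone receptor NHR-11 were examined where they lay beside genes of 3 classes of small non-coding RNA in Caenorhabditis elegans. The classes were small nucleolar RNA (snoRNA), small nuclear RNA (snRNA) and microRNA. A region was taken when its summit, the position of its highest signal, lay inside or within 500 bases of a gene annotated with one of these biotypes and was not within 500 bases of a tRNA gene. The rule found 305 of 30000 candidate regions, of which 182 lay near a snoRNA gene, 38 near an snRNA gene and 87 near a microRNA gene. A pair of regions lay near both a snoRNA and a microRNA gene and was counted in each class, and 3 regions near snoRNA genes were left out because of a tRNA gene. The rule used positions only, not the signal.

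The study used chromatin immunoprecipitation with sequencing (ChIP-seq) in whole L3 larvae of strain OP305 (unc-119(ed3) III; wgIs305), with males and females pooled. There was 1 group, with 2 biological replicates, and every animal carried the same unc-119 mutation and the same integrated eGFP-nhr-11 transgene. The labels name both NHR-11 itself and the tagged protein as the target, so the epitope is not settled, and no stage, strain or tissue was there to compare with. Because whole animals were used, binding in a few cells and weak binding in many cells cannot be told apart. No read counts are given in the lists, and the depth of each replicate is therefore unknown. Each of the candidate lists (replicate 1, replicate 2, both pooled) held 30000 regions, background included. The deposited reproducible list held 1030 regions, and these were the 1030 strongest of the pooled list. A region in that list is called reproducible here, and 3.43% of all candidate regions were.

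Nuclear hormone receptors are transcription factors with a zinc-finger DNA-binding domain, and nematodes have a greatly expanded family of them. snRNAs form the core of the spliceosome, and in nematodes the same biotype also holds the spliced leader RNAs: SL1 RNAs (sls-1 genes) and SL2 RNAs (sls-2 genes) each give a short leader to the 5′ end of other transcripts by trans-splicing, SL2 mainly to downstream genes of operons, and SmY RNAs (smy genes) are found in complexes with them. snoRNAs guide chemical modification of ribosomal and other RNAs, and many are cut out of introns of host genes. microRNAs are cut from hairpins and pair with messenger RNAs mainly through their seed, bases 2 to 8. snRNA genes have promoters of their own with a proximal element upstream of the first base, while intronic snoRNAs and many intronic microRNAs share the host gene's promoter.

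The strongest snRNA-class regions lay at the starts of SL2 RNA genes, so the 100 bases upstream of such genes are shown first, on the strand of the gene and ending at the base before the annotated 5′ end. The 1st, 2nd and 3rd lines are sls-2.1 (chrII:5844765-5844864, plus strand), sls-2.2 (chrII:5543498-5543597, plus strand) and sls-2.3 (chrII:5544274-5544373, minus strand), which with sls-2.4 shared a run of 15 letters. The others are 3 genes with a reproducible region that lack the run, sls-2.8 (chrIII:12250365-12250464, plus strand), C52E4.8 (chrV:11980018-11980117, plus strand) and F54D8.7 (chrIII:5080899-5080998, minus strand), and sls-2.14 (chrIII:11090524-11090623, minus strand), which had no candidate region. Coordinates are on ce11 (WBcel235) and sequences are from RefSeq. Capitals mark the shared run and, elsewhere, GAACCC or GAAACC.
sls-2.1: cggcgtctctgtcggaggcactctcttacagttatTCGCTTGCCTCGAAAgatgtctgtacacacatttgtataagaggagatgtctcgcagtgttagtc
sls-2.2: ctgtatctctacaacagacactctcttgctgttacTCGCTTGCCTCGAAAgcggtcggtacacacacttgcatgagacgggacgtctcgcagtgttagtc
sls-2.3: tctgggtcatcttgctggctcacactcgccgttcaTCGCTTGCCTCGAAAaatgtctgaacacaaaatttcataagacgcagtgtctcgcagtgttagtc
sls-2.8: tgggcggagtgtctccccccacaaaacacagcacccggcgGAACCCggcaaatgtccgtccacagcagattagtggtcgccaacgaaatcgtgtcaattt
C52E4.8: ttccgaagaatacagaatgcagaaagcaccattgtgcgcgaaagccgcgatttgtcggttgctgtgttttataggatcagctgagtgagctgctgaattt
F54D8.7: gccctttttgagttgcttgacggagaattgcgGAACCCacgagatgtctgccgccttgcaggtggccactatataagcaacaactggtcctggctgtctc
sls-2.14: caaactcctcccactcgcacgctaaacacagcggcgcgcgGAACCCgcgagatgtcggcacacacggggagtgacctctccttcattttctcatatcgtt

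The run TCGCTTGCCTCGAAA began 65 bases upstream of the first base in each of sls-2.1, sls-2.2, sls-2.3 and sls-2.4. It was found 4 times in the 6 chromosomes on either strand, at these 4 genes and nowhere else. None of the 19973 protein-coding, 346 snoRNA, 261 microRNA and 612 tRNA genes held it in the 100 bases upstream. The run was picked by its presence at SL2 RNA genes with a reproducible region, after their signal was seen, so its presence at such genes is a description of how it was chosen. In the same 100 bases 10 of the other 14 sls-2 genes held GAACCC or GAAACC on the gene strand. These words stood upstream of 54 of 129 snRNA-class genes (41.9%). The shares were 12.1% of snoRNA, 4.58% of tRNA, 3.83% of microRNA and 2.71% of protein-coding genes. Of the snRNA-class genes with a reproducible region 5 of 10 held one of them (50%), against 49 of 119 without such a region (41.2%). The 2 words, too, were chosen with results of these data known. Many of the 129 genes are near-copies of each other, so these are not counts of independent genes.

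For the other classes the summit with 50 bases to each side is shown for 4 of the strongest regions of each class, all on the plus strand of ce11. Capitals mark any of 7 words searched on both strands within 50 bases of the summit: the repeat GAGAGA, the word AGACGC, the palindromes GCGCGC and CACGTG, the box TATAAA, the GATA-type word TGATAA and the receptor core word AGGTCA. K02F3.15 and mir-2214 held none of them. The snoRNA regions are those of F54E7.10 (chrIII:5679097-5679197), W06H8.17 (chrV:6227728-6227828), M7.15 (chrIV:11083005-11083105) and K02F3.15 (chrIII:833803-833903). The microRNA regions are those of mir-54 (chrX:13145359-13145459), mir-5549 (chrIII:6972032-6972132), mir-4929 (chrII:13462120-13462220) and mir-2214 (chrIII:7278587-7278687).
F54E7.10: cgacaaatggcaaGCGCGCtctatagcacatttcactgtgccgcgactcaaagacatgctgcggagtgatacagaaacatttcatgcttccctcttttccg
W06H8.17: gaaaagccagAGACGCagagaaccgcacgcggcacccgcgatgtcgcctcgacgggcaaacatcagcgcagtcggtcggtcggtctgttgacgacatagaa
M7.15: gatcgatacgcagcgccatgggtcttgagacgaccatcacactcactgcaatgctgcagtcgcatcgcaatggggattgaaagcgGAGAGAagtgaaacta
K02F3.15: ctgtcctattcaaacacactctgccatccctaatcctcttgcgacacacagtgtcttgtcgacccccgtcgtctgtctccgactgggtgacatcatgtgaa
mir-54: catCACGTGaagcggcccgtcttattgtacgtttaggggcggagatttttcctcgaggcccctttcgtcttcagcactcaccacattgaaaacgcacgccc
mir-5549: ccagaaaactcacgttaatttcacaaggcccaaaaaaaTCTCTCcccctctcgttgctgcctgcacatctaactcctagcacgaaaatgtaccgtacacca
mir-4929: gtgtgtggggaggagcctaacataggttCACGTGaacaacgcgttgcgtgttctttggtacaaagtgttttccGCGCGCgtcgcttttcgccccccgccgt
mir-2214: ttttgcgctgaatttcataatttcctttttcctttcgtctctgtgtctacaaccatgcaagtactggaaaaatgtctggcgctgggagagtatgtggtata

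Within 50 bases of the summit, on either strand, 7.8% of all 30000 candidate regions held GAGAGA, 2.79% AGACGC, 11.1% TATAAA, 10.4% TGATAA and 2.48% AGGTCA. For snoRNA-class, snRNA-class and microRNA-class regions, in that order, GAGAGA was held by 12.1%, 7.89% and 12.6%. AGACGC was held by 4.40%, 5.26% and 4.60%, TATAAA by 9.34%, 10.5% and 17.2%, and TGATAA by 6.59%, 5.26% and 10.3%. Among the 182 snoRNA-class regions GCGCGC was held by 9 (4.95%), against 0.8% of all candidates, and 4 of these 9 were reproducible, against 53 of the 240 candidates with the word. The word was thus held by 4 of 23 reproducible snoRNA-class regions (17.4%), against 5.15% of all 1030. CACGTG was held by 3 of 87 microRNA-class regions (3.45%), against 1.9% of all, and mir-54 and mir-4929 account for 2 of these 3. GAGAGA was the commonest of the words in reproducible regions as a whole, at 28.6% of 1030. It was held by 4 of 23 reproducible snoRNA-class regions (17.4%), 0 of 10 snRNA-class and 2 of 6 microRNA-class ones. AGGTCA, bound by many nuclear receptors as the core of their sites, was held by 1 of 10 reproducible snRNA-class regions, at sls-2.1, and by none of the 23 snoRNA-class or 6 microRNA-class ones, against 2.62% of all 1030. With so few regions these shares carry wide counting error. The mean share of G and C at the summit was 50.4% ± 8.74 for the 10 reproducible snRNA-class regions, 50.2% ± 8.54 for the 23 snoRNA-class and 48.5% ± 7.11 for the 6 microRNA-class regions, against 45.0% ± 8.36 for all 1030 reproducible regions (SD over regions).

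Mature microRNAs near the reproducible regions are given with the seed in capitals, from RefSeq, for some of these genes. RefSeq held mature sequences for all 8 microRNA genes within 500 bases of a reproducible region and for 260 of 261 microRNA genes in all. The arms are those named a and b in that annotation. Both mir-54 and mir-55 lie on the minus strand of chromosome X, mir-5549 on the minus strand of chromosome III, mir-4929 on the minus strand of chromosome II and mir-2214 on the plus strand of chromosome III.
mir-54 arm b: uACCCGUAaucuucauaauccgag
mir-55 arm b: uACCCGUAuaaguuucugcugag
mir-5549 arm a: cUUGUGAAauuaacgugagu
mir-5549 arm b: uCAUGUUGguuuuuuguuggu
mir-4929 arm b: aAUGCACCacaucuuacgcuca
mir-2214 arm a: aUUCGGUCcggagucaauggg
mir-2214 arm b: cAUUGACAacaacuugaccggcguu

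The seed ACCCGUA is shared by mir-54 and mir-55 and by mir-51, mir-52, mir-53 and mir-56, 6 genes in all. The other seeds shown were each found at 1 gene. Of the 6 genes only mir-54 and mir-55 had a reproducible region, and it was the same region. Candidate regions that were not reproducible lay near mir-53, with a signal of 43.3 at rank 1884, and near mir-52, with a best signal of 33.9 at rank 4612. None lay near mir-51 or mir-56.

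All 3 classes had a larger share of reproducible regions than the candidate list as a whole, and over all members the order was snRNA, snoRNA, microRNA. Of 305 regions 39 were reproducible (12.8%, Wilson 95% interval 9.50 to 17.0), against 3.43% of the 30000. Among snRNA-class regions 10 of 38 were (26.3%, interval 15.0 to 42.0). Among snoRNA-class regions 23 of 182 were (12.6%, interval 8.57 to 18.2), and among microRNA-class regions 6 of 87 were (6.90%, interval 3.20 to 14.2). The microRNA interval reaches down to the share of all candidates, and the snRNA and snoRNA intervals do not. A raised share was not particular to these classes. Of the regions within 500 bases of a tRNA gene, which the rule left out, 29 of 261 were reproducible (11.1%, interval 7.85 to 15.5). Among regions made up to at least 90% of 31-base words found once in the genome, the snRNA class was no longer first: 2 of 20 were reproducible (10%) in the snRNA class, 21 of 167 (12.6%) in the snoRNA class and 6 of 84 (7.14%) in the microRNA class, against 3.36% of all such candidates. The intervals cover counting error over regions only, since regions at neighbouring or repeated genes are not independent.

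**Figure D1:**
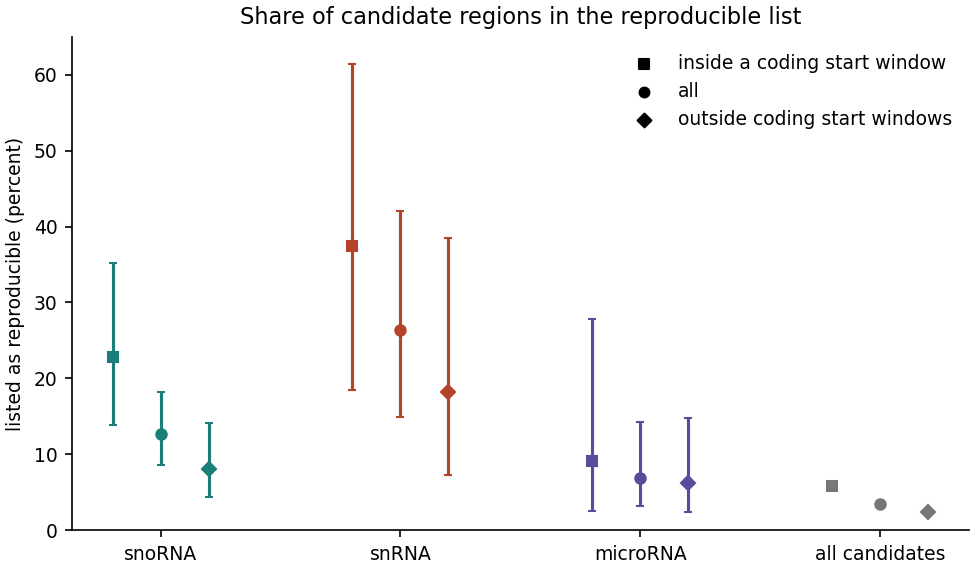
Percentage of candidate regions listed as reproducible (vertical axis) for regions near snoRNA, snRNA and microRNA genes and for all candidates, with Wilson 95% intervals as bars. Squares are regions inside a coding start window (1000 bases upstream to 500 bases downstream of the 5′ end of a protein-coding gene), circles all regions and diamonds regions outside such windows. The snRNA circle stands at 26.3% and that of all candidates at 3.43%.

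The signal of the peak caller, whose scale was not stated, set the classes apart less at the middle of their range than at the top. Its median was 29.4 for snoRNA-class regions, 28.1 for snRNA-class and 25.4 for microRNA-class regions, against 24.8 for all candidates. As percentile ranks of the pooled list these medians were 73.0, 67.9 and 54.1, where all candidates have 50. Regions within 500 bases of a tRNA gene had a median of 67.5. The microRNA class thus had a middle close to that of all candidates. The highest signals were 221 (snoRNA class), 212 (snRNA class) and 142 (microRNA class), and 5 regions were among the 100 strongest of the pooled list. The strongest region of the whole list, with a signal of 898.9 near the start of cdc-48.1, lay 514 bases from the snoRNA gene C06A1.9 and so fell just outside the distance rule.

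**Figure D2:**
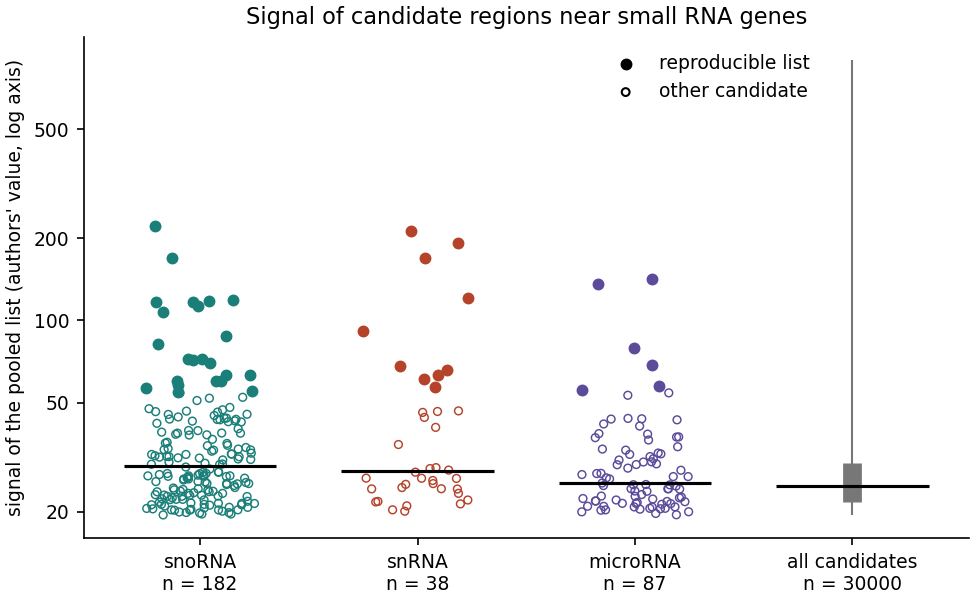
Signal of each candidate region in the pooled list (log axis) near snoRNA, snRNA and microRNA genes. Filled points are reproducible regions, open points other candidates and black lines medians; for all 30000 candidates the thick bar spans the quartiles and the thin line the whole range. The medians of the 3 classes lie between 25.4 and 29.4, above the 24.8 of all candidates.

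The snRNA-class regions were led by SL2 RNA genes. The strongest lay at sls-2.2 on chromosome II (region chrII:5543380-5543735), with a signal of 212.4 and ranks 41 in the pooled list, 47 in replicate 1 and 36 in replicate 2. Its summit was 40 bases upstream of the 5′ end of the gene. The region at sls-2.1 (chrII:5844690-5845045) had a signal of 191.4, with ranks 51 pooled, 43 in replicate 1 and 77 in replicate 2, and its summit 3 bases past the 5′ end. Both genes were thus among the 100 strongest regions of both replicates. At sls-2.4 on chromosome I (chrI:4172000-4172355) the signal was 169.8, with ranks 69 pooled, 61 in replicate 1 and 88 in replicate 2 and a summit 28 bases upstream. These 3 genes carry the 15-letter run described above.

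The other gene with the run, sls-2.3, lies tail to tail with sls-2.2. Its own region (chrII:5544145-5544500) had its summit 50 bases upstream, a signal of 46.5 and rank 1539, so it was the second strongest snRNA-class region outside the reproducible list. It overlapped a region at rank 673 in replicate 1 and none of the candidate list of replicate 2. All 4 genes with the run therefore had a candidate summit within 50 bases of the 5′ end, and 3 of the 4 summits were in reproducible regions. It counts among the genes near a reproducible region only through a region downstream of sls-2.2 (chrII:5543579-5543934, signal 121.2, rank 166), with its summit 159 bases past the 5′ end of that gene. That region overlaps the one at the start of sls-2.2 and matches the same regions in both replicates, so the pair is not 2 separate observations.

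The run was picked from SL2 RNA genes with a reproducible region, so a split of the family by it follows partly from that choice. Of the 14 sls-2 genes without the run 1 had a reproducible region. This was sls-2.8 on chromosome III (chrIII:12250239-12250594), with a signal of 67.9 at rank 653 and a summit 48 bases upstream. It ranked 1349 in replicate 1 and 489 in replicate 2. Near sls-2.10 and sls-2.13 there were weak candidates, with signals of 29.0 and 21.7, and the others had none within 500 bases. Only 2 of the 10 reproducible snRNA-class regions, those of sls-2.4 and sls-2.8, were made up to at least 90% of 31-base words found once in the genome.

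The remaining 5 reproducible snRNA-class regions lay at genes of other groups. Genes were grouped by sequence, joining those with at least 70% identity, because the files used here give most of them no family name. C52E4.8, of a group of 5 genes of about 144 bases, had a signal of 91.3 at rank 311, with ranks 329 in replicate 1 and 450 in replicate 2 and a summit 65 bases upstream (chrV:11979875-11980230). It lies beside the start of snr-4, which encodes a Sm protein of the spliceosome. F54D8.7 (signal 65.8, rank 701) and W05B2.8 (signal 63.2, rank 757) belong to a group of 24 genes of about 102 bases. The first has its summit inside the gene, 76 bases past the 5′ end, beside the start of cox-6A, and the second 62 bases upstream in an intron of dhc-4.

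The list ended with sup-6 and F38E11.10. sup-6 belongs with sup-39 to a group of 13 genes. Both are U1 snRNA genes known for suppressor alleles that change the choice of splice site. sup-6 had a signal of 61.1 at rank 812, with its summit 60 bases past the 5′ end, while sup-39 had 44.2 at rank 1762 with its summit 25 bases upstream. F38E11.10, of a group of 12 genes of about 122 bases, had a signal of 57.0 at rank 937 and a summit 79 bases upstream. It was the 1 reproducible region of the 39 that was outside the 1030 strongest of both replicates, with ranks 1257 in replicate 1 and 1068 in replicate 2. Replicate support was also uneven for W05B2.8 (415 in replicate 1, 2402 in replicate 2) and sup-6 (506 in replicate 1, 1975 in replicate 2).

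**Figure D3:**
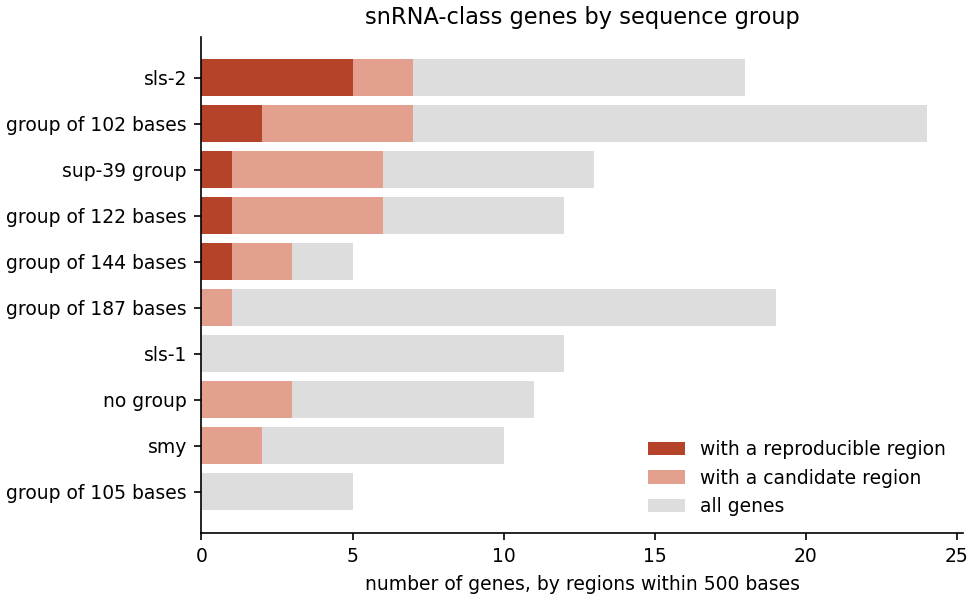
Number of snRNA-class genes in each sequence group (horizontal axis), in grey for all genes, light red for those with a candidate region within 500 bases and dark red for those with a reproducible one. The sls-2 group has 5 of 18 genes with a reproducible region and the sls-1 group 0 of 12.

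Over all snRNA-class genes, 35 of 129 had a candidate region and 10 of 129 (7.75%, interval 4.26 to 13.7) a reproducible one, against 4.19% of protein-coding, 5.67% of lincRNA and 5.56% of tRNA genes by the same distance. The lincRNA and tRNA shares lie inside the interval, and the protein-coding share lies just below it. Protein-coding genes are longer, so the same distance takes in more sequence at each of them. The sls-2 group held 5 of these 10 genes, in 18 genes (27.8%, interval 12.5 to 50.9). By contrast 0 of 12 sls-1 genes had even a candidate region. Of the 10 smy genes annotated as snRNA 2 had a candidate but none a reproducible one. The genes smy-2 and smy-3 are annotated as snoRNA and had no candidate region. In the group of 19 genes of about 187 bases 1 had a candidate. The groups also differed in repeated sequence. The median share of 31-base words found once in the genome, over the gene and 178 bases to each side, was 88.6% for sls-2 genes, 54.6% for the group of 187 bases and 0% for sls-1 genes. It was 99.3% for the smy group and 100% for a group of 5 genes of about 105 bases, which had no candidate region. For the 11 genes of no group it was 98.2%, and 3 of them had a candidate and none a reproducible region. These 3 include mir-1831, annotated as snRNA. Its record of 22 bases lies inside sup-39, and its candidate is the region of sup-39. At the level of regions, 2 of the 10 reproducible snRNA-class regions reached 90% unique words, against 20 of all 38. Reads from repeated sequence may be placed or discarded in ways the sources used here do not give, and the part of this in the result was not tested.

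Summits of the snRNA class gathered at the 5′ end. Of 38 summits 17 lay from 100 bases upstream to 99 bases past the 5′ end, and 9 of these 17 regions were reproducible (52.9%, interval 31.0 to 73.8). Of the 21 farther away 1 was (4.76%, interval 0.846 to 22.7), and this is the downstream region of sls-2.2. The median signal was 57.0 for the 17 and 25.3 for the 21. Repetition differs here too, since 5 of the 17 regions and 15 of the 21 reached 90% unique words. Coding starts were also close: 6 of the 10 reproducible snRNA-class summits lay in a coding start window as well. Inside such windows 6 of 16 snRNA-class regions were reproducible (37.5%), against 5.79% of all candidates inside one. Outside them 4 of 22 were (18.2%), against 2.45%.

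A pair of regions about 200 bases apart flanked several of these genes. At sls-2.2 the summits were 199 bases apart, at sls-2.4 206, and at both C52E4.8 and F38E11.10 227. In each of these pairs the upstream region was the stronger one. At sls-2.4 the upstream signal was 169.8 and the downstream 46.1, at C52E4.8 91.3 and 40.7, and at F38E11.10 57.0 and 27.9. In each of the 4 pairs both regions matched the same replicate regions. Another snRNA-class gene with 2 regions, F32B5.9, had summits 667 bases apart, and its downstream region was the stronger one. Gaps of about 200 bases were not particular to this class. They were 200 bases at the snoRNA gene K07C11.11, 201 at the snoRNA gene T24H10.12 and 228 at mir-239.1.

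**Figure D4:**
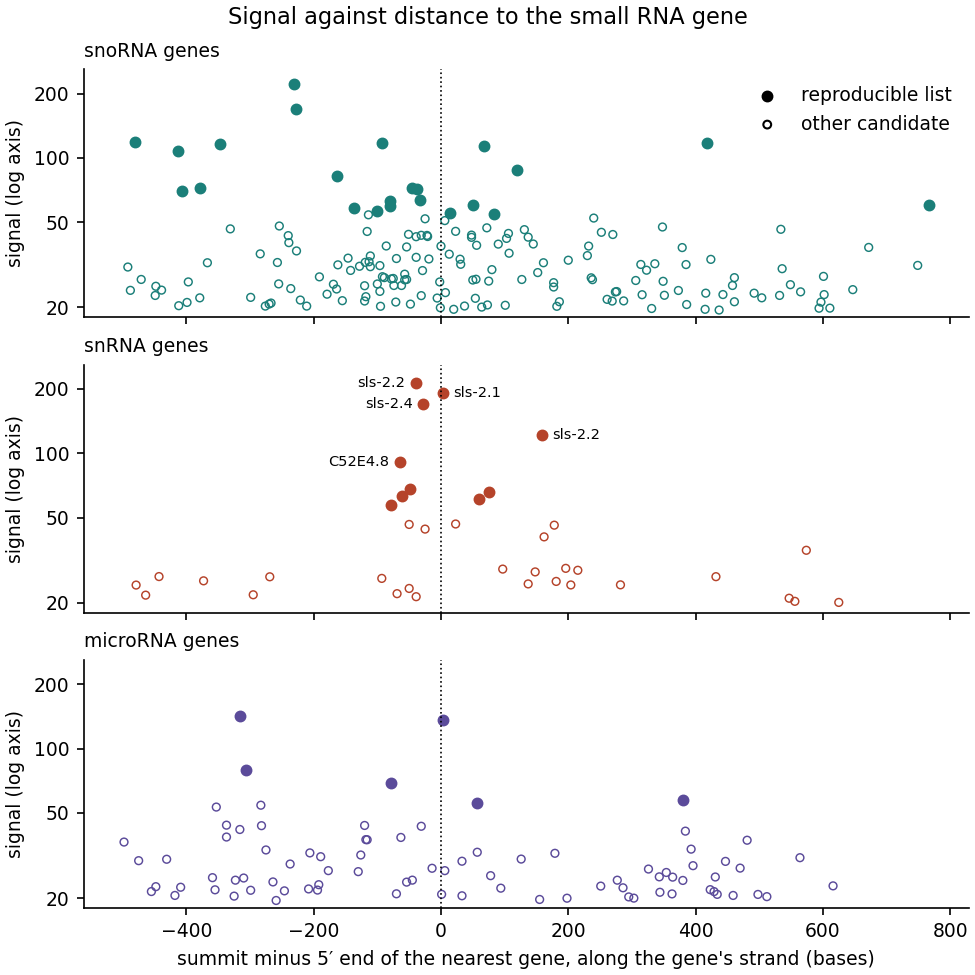
Signal in the pooled list (log axis) against the distance of the summit from the 5′ end of the nearest gene in bases along the gene's strand, for snoRNA, snRNA and microRNA genes. Filled points are reproducible regions and open points other candidates; 2 microRNA-class regions lie beyond the plotted range. Of the 10 filled points of the snRNA class 9 lie within 100 bases of the 5′ end. Of the 23 of the snoRNA class 6 lie 1 to 100 bases upstream of it and 4 lie 0 to 99 bases past it. Of the 6 of the microRNA class these counts are 1 and 2.

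The snoRNA-class summits lay somewhat farther from the RNA gene, at a median distance of 115 bases, against 69 in the snRNA class. Of 182 summits 91 were upstream, 37 inside and 54 downstream of the nearest snoRNA gene, and of the 23 reproducible ones 16 were upstream, 5 inside and 2 downstream. The median reproducible summit lay 80 bases upstream of the 5′ end, within a range of 481 upstream to 766 past it. A share of 13.6% (14 of 103) was reproducible where the snoRNA gene lay inside a protein-coding gene, and 11.4% (9 of 79) where it did not. The intervals of these shares overlap (8.27 to 21.5 and 6.11 to 20.3). By genes, 24 of 346 snoRNA genes had a reproducible region within 500 bases (6.94%, interval 4.71 to 10.1), against 4.19% of protein-coding, 5.67% of lincRNA and 5.56% of tRNA genes. The lincRNA and tRNA shares lie inside this interval, and protein-coding genes are longer, so their share is not like for like.

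Many of these regions also lay at the start of a protein-coding gene. In 13 of the 23 the summit was also in a coding start window, from 1000 bases upstream to 500 bases downstream of the 5′ end of a protein-coding gene. Of snoRNA-class regions inside such a window 13 of 57 were reproducible (22.8%), against 5.79% of all candidates inside one. Outside the windows 10 of 125 were (8.0%, interval 4.40 to 14.1), against 2.45% of all candidates outside them. Both shares of the snoRNA class were thus above the matching share of all candidates.

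Ribosomal protein genes stood out among those starts, and several of them host snoRNAs in their introns. In a ribosomal protein gene's start window 6 of 9 snoRNA-class regions were reproducible (66.7%, interval 35.4 to 87.9). Candidate regions in such windows were often reproducible anyway, 38 of 76 in all (50%) and 32 of the 67 that were not near a snoRNA gene (47.8%). The interval of the 6 of 9 includes both of these shares. In the windows of other coding genes 7 of 48 snoRNA-class regions were reproducible (14.6%).

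The strongest snoRNA-class region was one of these 6. F54E7.10 lies inside rps-12, a small-subunit ribosomal protein gene on chromosome III, and the region (chrIII:5678969-5679324) had a signal of 220.9 and ranks 38 pooled, 31 in replicate 1 and 53 in replicate 2. Its summit lay 231 bases upstream of the snoRNA gene and 142 bases upstream of the start of ska-3, the neighbour of rps-12. The other 5 were B0041.9 in rpl-4 (118.4), Y24D9A.9 in rpl-7A (116.3), D1007.20 in rpl-24 beside rps-10 (107.7), F39B2.14 in tmem-107 beside rps-26 (82.1) and H06I04.9 in rps-27A (69.8). All 6 were among the 1030 strongest of both replicates, with replicate ranks from 31 to 760. The word GCGCGC was at F54E7.10, Y24D9A.9 and H06I04.9.

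Other snoRNA-class regions at coding starts had signals from 55.4 to 168.9. W06H8.17 (chrV:6227600-6227955) had 168.9, with ranks 70 pooled, 72 in replicate 1 and 65 in replicate 2, and lay 228 bases upstream of its snoRNA gene at the start of W06H8.6. M7.15 had 118.1, in the start windows of klc-1, a kinesin light chain gene, and let-70, which encodes a ubiquitin-conjugating enzyme. C28D4.17, inside the nuclear hormone receptor gene nhr-138, had 87.4. R166.10 at mnk-1 had 72.4, Y17G7B.25 at ippk-1 58.2, F59C6.15 at F59C6.18 56.8 and T25D3.8 at etr-1 55.4. The region of Y17G7B.25 rested on 1 replicate, with ranks 472 in replicate 1 and 10549 in replicate 2.

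The 10 reproducible snoRNA-class regions away from coding starts had signals from 54.9 to 117.2. K02F3.15 had 117.2, with ranks 130 in replicate 1 and 426 in replicate 2, and its summit lay in an intron of zip-2, a bZIP transcription factor gene, 418 bases past the 5′ end of the snoRNA gene. ZK20.9 had 113.2, with ranks 307 in replicate 1 and 184 in replicate 2, and its summit lay inside the snoRNA gene, 67 bases past the 5′ end, with no coding gene around it. These 2 show regions of this class with high rank in both replicates and no coding start nearby. The others were M106.6 (72.1) in mix-1, Y43F8C.22 (71.9), Y38F2AR.14 (63.3), C51F7.4 (62.9) in frm-7, C41C4.16 (60.3) in ulp-4, F07A11.15 (60.05) on din-1, T06C12.16 (59.95) and C26G2.11 (54.9). Of these 8, Y43F8C.22, Y38F2AR.14 and C51F7.4 were within the 1030 strongest of both replicates.

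The microRNA-class regions were the closest to the background. Of 87 summits 44 were upstream, 11 inside and 32 downstream of the nearest gene, and 8 of 261 microRNA genes had a reproducible region within 500 bases (3.07%, interval 1.56 to 5.93). For comparison by the same distance, 836 of 19973 protein-coding genes had one (4.19%), though these genes are longer. Inside coding start windows 2 of 22 microRNA-class regions were reproducible (9.09%), and outside them 4 of 65 (6.15%), against 5.79% and 2.45% of all candidates.

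The strongest lay beside mir-54 on chromosome X (chrX:13145231-13145586), with a signal of 141.8 and ranks 110 pooled, 78 in replicate 1 and 166 in replicate 2. Its summit was 315 bases upstream of mir-54, within 500 bases of mir-55 and of F09A5.15 as well, in an intron of F09A5.3, which runs on the other strand, and outside any coding start window. Beside mir-5549 (chrIII:6971904-6972259) the signal was 136.5, with ranks 124 pooled, 149 in replicate 1 and 115 in replicate 2. That summit lay 3 bases past the 5′ end of mir-5549 but also in the start windows of eef-1A.1, a translation elongation factor gene, and rfc-4, a clamp loader gene of DNA replication. Both regions ranked high in both replicates. mir-4929 (79.3, summit 306 bases upstream, in an intron of E01G4.3) and mir-2214 (68.9, 78 bases upstream, in an intron of B0361.11) were also within the 1030 strongest of both.

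The last 2 were weaker and uneven. mir-1824 had a signal of 57.8, with ranks 906 in replicate 1 and 1285 in replicate 2. mir-8209 had 55.7, with ranks 10207 in replicate 1 and 442 in replicate 2, so it rested on replicate 2. Just outside the reproducible list stood mir-80 (54.3, rank 1047, summit 283 bases upstream) and mir-229 (53.3, rank 1083, summit 353 bases upstream in gcn-1). These neighbours of the edge had replicate ranks from 771 to 1915 and did not stand apart from mir-1824 in that respect. In the snoRNA class the edge fell between T25D3.8 and C26G2.11 (55.4 and 54.9) and C02F5.15 and C27H5.10 (54.2 and 52.4). In the snRNA class it fell between sup-6 and F38E11.10 (61.1 and 57.0) and R07E5.16 and sls-2.3 (46.7 and 46.5).

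The microRNAs let-7 and lin-4, which time cell fates in larvae, had no reproducible region. Near let-7, whose gene record spans 1732 bases, there were 3 candidate regions. The strongest (chrX:14744066-14744421) had a signal of 34.5 at rank 4303, with ranks 17218 in replicate 1 and 2748 in replicate 2. Near lin-4 there was 1, with a signal of 21.9 at rank 22117. None of the replicate matches of these regions was among the 1030 strongest. The 8 genes of the mir-35 family, mir-35 to mir-42, known for roles in embryos, had no candidate region within 500 bases.

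Agreement of the replicates was checked for all members. Of the 39 reproducible regions 25 overlapped the 1030 strongest of both replicates, 13 of only 1 of them and 1 of neither. Counting every member whether reproducible or not, 8 of 38 snRNA-class regions (21.1%), 16 of 182 snoRNA-class regions (8.79%) and 4 of 87 microRNA-class regions (4.60%) overlapped the 1030 strongest of both replicates, against 2.44% of all candidates. The order of the classes was the same as with the reproducible list. The pooled list was made from the same replicates, so the same order is not a separate check. An overlap of 1 base counted, so both regions of a flanking pair can match 1 replicate region.

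**Figure D5:**
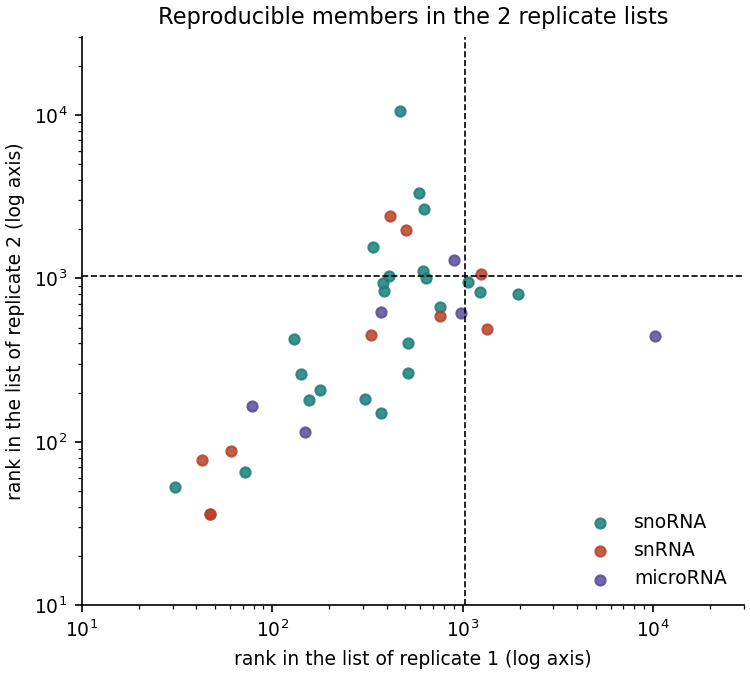
Rank of the strongest overlapping region in the list of replicate 2 against that in replicate 1 (both log axes) for the 39 reproducible members, coloured by class. Dashed lines mark rank 1030; 25 points lie within it on both axes, and the points of mir-8209 and Y17G7B.25 lie far outside on 1 axis.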

How the data were processed

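Candidate regions were taken from ChIP-seq of 2 replicates of 1 group. Per the deposited descriptions, the authors' peak caller gave each region a signal computed from a sample and a control alignment. Caller, aligner, versions and scale are not given in the sources used here, so signals were only ranked within a list. The authors made the reproducible list with an irreproducible discovery rate threshold. Depth is unknown, since no read counts are given. Only the ce11 lists were used, and no control library was analysed here.

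Summits (start plus offset, 1-based) were joined to Ensembl release 115 genes (WBcel235), named from RefSeq by gene identifier. Members were summits within 500 bases of a gene of the 3 biotypes. A replicate match was an overlap of at least 1 base, using the strongest overlapping region. Uniqueness was the share of 31-base words found once in the genome. Groups of snRNA genes joined sequences of at least 70% identity (edlib 1.3.9). Python 3.11.15, numpy 2.4.6, pandas 2.3.3, scipy 1.17.1 and matplotlib 3.10.9 were used. Distance, overlap and uniqueness steps were tested on simulated data.

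The members, lists and words were chosen with earlier results of these data known, so no p-value is given. Text names every member in the reproducible list, those beside its edge, let-7, lin-4 and the mir-35 family. Shares have Wilson 95% intervals. Alternatives changed the distance (250, 1000 or 0 bases), the tRNA filter, the position used, the length of the reproducible list (2 times shorter or longer), the replicates, uniqueness, coding start windows and regions of more than 1 class.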

Additional observations from a re-analysis of the deposited data

How the results depend on the processing

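In all 13 alternatives run, each class had a larger share of called regions than all candidates under the same setting. The alternatives reuse largely the same regions, so they are not independent checks. Using the midpoint of the region left the counts of every class as they were. The main microRNA share rests on 6 called regions of 87. Calling from the pooled list with a list 2 times shorter gave 5.50% for snoRNA and 13.2% for snRNA, against 1.72% of all candidates. A list 2 times longer gave 25.8% for snoRNA, against 6.87% of all candidates. Taking only summits inside the gene left 37 snoRNA, 4 snRNA and 11 microRNA regions. Called were 5 of 37 snoRNA (13.5%), 3 of 4 snRNA (75%) and 2 of 11 microRNA regions (18.2%), against 3.43% of all candidates. The median percentile ranks were 84.1 for snoRNA and 97.5 for snRNA. A distance of 1000 bases gave 303 snoRNA, 63 snRNA and 160 microRNA regions, and 250 bases gave 44 microRNA regions. Among regions of at least 90% unique words the snRNA class had 20 regions and 10% called, below the snoRNA class (12.6%) and above the microRNA class (7.14%), against 3.36% of all such candidates. Outside coding start windows it had 22 regions, and the snoRNA share was 8.0%, against 2.45%. Leaving out 1 replicate gave shares of 12.4 to 14.3% for snoRNA, 18.4 to 23.7% for snRNA and 5.75 to 8.60% for microRNA, against 3.43%. Fewer regions follow from the construction of these settings; the cause of the other differences was not tested. No paired analysis was possible because there was 1 group only. The unknown depth, the unstated scale of the signal and repeated sequence at snRNA-class genes limit what these lists show.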
